A study of Mus musculus with 6 samples.

Results

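The replication-dependent histone genes were taken as every gene of the gene table whose name begins with Hist1h, Hist2h, Hist3h or Hist4h, which gave 62 of 14665 genes. They were 6 H1, 17 H2A, 15 H2B, 11 H3 and 13 H4 genes. By name, 52 of them belong to the cluster Hist1, 8 to Hist2, and 1 each to Hist3 and Hist4. The set was proposed with the comparison of hypoxia/reoxygenation (H/R) and control already known, so its changes, and the calls of a fit over all genes, are given as a description of the set and not as a test of it.

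The study sequenced RNA of the mouse neural stem cell (NSC) line C17.2, an immortalized line, after removal of ribosomal RNA, in 3 H/R libraries and 3 control libraries. The H/R cells were held at 5% O2 for 12 h and then kept for 48 h at standard oxygen, and the control cells stayed at standard oxygen. All libraries came from 1 line, and no source used here says whether replicates were separate cultures, so the spread between them may be technical.

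A nucleosome wraps DNA around an octamer of the core histones H2A, H2B, H3 and H4, and linker histone H1 binds where the DNA enters and leaves it. Most histone protein for newly copied DNA comes from clustered genes without introns that are transcribed in S phase. Their mRNAs usually end in a conserved stem-loop instead of a poly(A) tail, and the stem-loop is bound by SLBP, which guides 3′ end cleavage, translation and the decay of the mRNA when DNA synthesis stops.

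The stem-loop was found in the annotated GENCODE transcript (release M21, mm10) of 43 of the 62 genes, with 6 bases on each side of the stem, which paired throughout in all 43, and a loop of 4 bases. The search pattern fixed the outer GG and CC and the inner T and A of the stem, with pyrimidines facing purines between them. Pairing was thus largely built into the search, as was the form of the loop, of which only part could vary. Sites of 8 genes are printed because they show every loop but that of Hist1h4a, and because 3 of the 4 genes that stood lower after H/R are among them. Each is written 5′ to 3′ as DNA with the stem and loop in capitals.
Hist1h2bg: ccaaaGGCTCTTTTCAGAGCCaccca
Hist1h1c: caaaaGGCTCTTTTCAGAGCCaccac
Hist1h4d: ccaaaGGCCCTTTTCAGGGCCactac
Hist1h3c: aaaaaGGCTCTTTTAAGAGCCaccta
Hist1h3g: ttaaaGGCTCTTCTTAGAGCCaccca
Hist1h4i: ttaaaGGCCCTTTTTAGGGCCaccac
Hist2h4: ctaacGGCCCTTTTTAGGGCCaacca
Hist2h2ac: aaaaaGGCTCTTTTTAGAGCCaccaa
The core of Hist1h2bg and Hist1h1c was shared by 23 genes of the H1, H2A, H2B and H3 classes, and that of Hist1h4d by 7 genes, all of them H4. The core of Hist1h4i and Hist2h4 was found in these 2 genes only.

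Histone transcripts took a larger share of the H/R libraries. The 62 genes held 0.144%, 0.143% and 0.122% of all gene counts in the H/R libraries (95% Wilson intervals 0.142 to 0.146%, 0.141 to 0.144% and 0.120 to 0.124%). In the control libraries they held 0.0849%, 0.0762% and 0.0628% (0.0830 to 0.0869%, 0.0743 to 0.0781% and 0.0610 to 0.0647%). The groups did not overlap, and the mean share was 0.136 ± 0.0124% after H/R and 0.0746 ± 0.0111% in control (SD, n = 3 each), a ratio of 1.82. Scaled to counts per 1000000 (CPM) with TMM factors, which correct for the makeup of each library, the summed level was 1264 ± 111 CPM after H/R and 804 ± 117 CPM in control, a ratio of 1.57. The intervals treat every read as independent and cover counting error only, not the spread between libraries. Reads copied by PCR are not independent molecules, so even the counting error may be larger than the intervals show.

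Total gene counts were 15639751 to 16830389 in the H/R libraries and 7267809 to 8371882 in the control libraries. Within each group, replicate 3 held the lowest share of histone counts: H/R replicate 3 was lowest of its group for 37 of 56 tested histone genes and control replicate 3 for 35. The stem cell genes Nes and Vim were expressed (Nes at 313 to 351 CPM after H/R and 184 to 214 CPM in control), and Sox2 stood near 30 CPM in every library, while the measured microglia genes summed to at most 0.353 CPM after H/R and 0.649 CPM in control. The neuron list summed to 32.8 to 37.9 CPM after H/R and 73.2 to 81.1 CPM in control, nearly all of it Map2, and its part in the histone values was not tested. In RNA of a whole culture, a change in the number of cells in S phase and a change in histone RNA per cell cannot be told apart.

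Of the 62 genes, 56 passed the filter on low counts. In edgeR's quasi-likelihood fit over 11104 genes, at an adjusted p under 0.05, 35 histone genes were called higher after H/R, 4 lower and 17 neither. Over all genes tested 18.8% were called higher and 19.0% lower. The median fitted log2 fold change was 1.02 for the histone genes, with 49 positive and 7 negative, and 0.01 for all genes. All H/R libraries lay above all control libraries for 37 histone genes and under them for 5 (all genes: 25.7% and 24.0%). When the H/R libraries were thinned to the median depth of the controls, 34 of the 35 higher and all 4 lower genes kept their call.

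**Figure D1:**
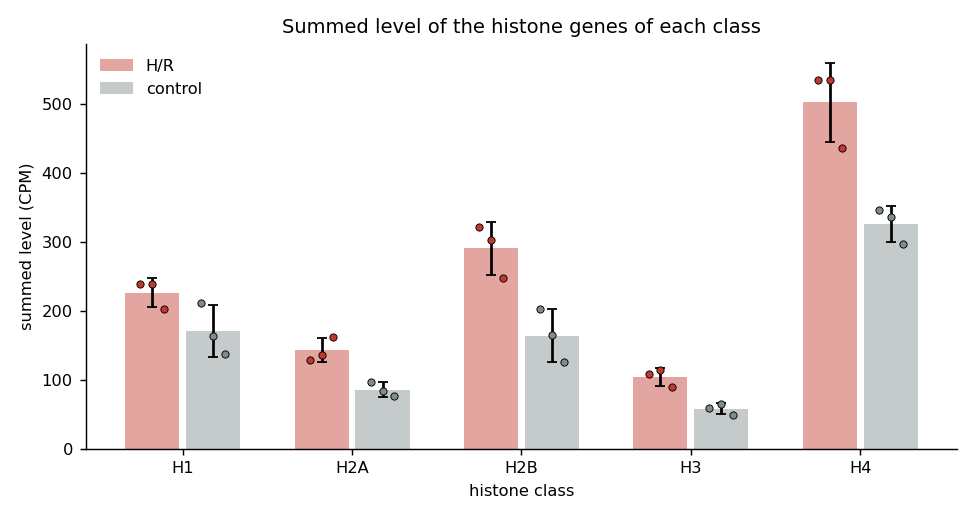
Summed level of the histone genes of each class in CPM, with bars for the mean, whiskers for the SD and points for the 3 libraries of each group (H/R left, control right). The H/R points lie above the control points in the H2A, H2B, H3 and H4 classes, while in H1 the lowest H/R library (202 CPM) lies under the highest control library (212 CPM).

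The ratio between the groups varied among the 5 classes. The summed level of H3 genes was 104 ± 13.1 CPM after H/R and 57.7 ± 8.01 CPM in control, a ratio of 1.80. H2B genes summed to 290 ± 38.6 CPM after H/R and 164 ± 38.7 CPM in control (ratio 1.77), and H4 genes to 502 ± 56.7 CPM after H/R and 326 ± 25.9 CPM in control (ratio 1.54). The H2B sum includes Hist2h2bb, whose ID belongs to a lincRNA in GENCODE M21. That gene had a mean of 48.9 CPM after H/R and 69.2 CPM in control. Without it the H2B ratio would be larger, so the order of the classes depends on it. H2A genes summed to 142 ± 17.3 CPM after H/R and 85.6 ± 10.7 CPM in control (ratio 1.66), but 1 gene in 1 library, Hist2h2aa2 in H/R replicate 3, supplied much of this, and without that gene the sum was 123 ± 10.3 CPM after H/R and 82.9 ± 10.6 CPM in control (ratio 1.48). H1 genes had the smallest ratio, 1.32 (226 ± 20.9 CPM after H/R and 171 ± 37.8 CPM in control), and only in this class did the groups overlap. H1 genes thus took 17.8% to 18.0% of histone counts in the H/R libraries and 20.0% to 23.1% in the control libraries. The difference between classes was not tested.

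The linker histone genes differed in direction. Hist1h1b, which encodes H1.5, had 66.5, 62.3 and 51.6 CPM in H/R cells, against 14.8, 14.5 and 5.69 CPM in control cells. Its log2 fold change was 2.35 (standard error 0.25), and even the lowest H/R library stood far above the highest control. Hist1h1a, the gene of H1.1, had 5.94, 8.50 and 8.53 CPM in H/R cells, against 2.45, 2.86 and 1.65 CPM in control cells (log2 fold change 1.71, standard error 0.35). Hist1h1d, the gene of H1.3, was higher by a smaller margin, with 37.8, 39.2 and 34.4 CPM in H/R cells, against 26.9, 24.7 and 19.2 CPM in control cells (0.65, standard error 0.16). For Hist1h1e, the gene of H1.4, the groups overlapped, at 55.2, 57.8 and 47.0 CPM in H/R cells, against 65.2, 38.2 and 25.3 CPM in control cells. Its log2 fold change of 0.31 (standard error 0.24) depended on the controls, since it was 0.74 without control replicate 1 and 0.04 without control replicate 3. Hist1h1c, the gene of H1.2, had the highest level per kilobase in control cells among the tested H1 genes of Hist1. It went the other way, with 73.0, 70.1 and 60.6 CPM in H/R cells, against 102, 83.8 and 85.0 CPM in control cells. All H/R libraries lay under all controls, with a log2 fold change of -0.41 (standard error 0.12). The testis linker histone gene Hist1h1t had 4 counts in all the H/R libraries and 1 in the controls and was not tested.

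**Figure D2:**
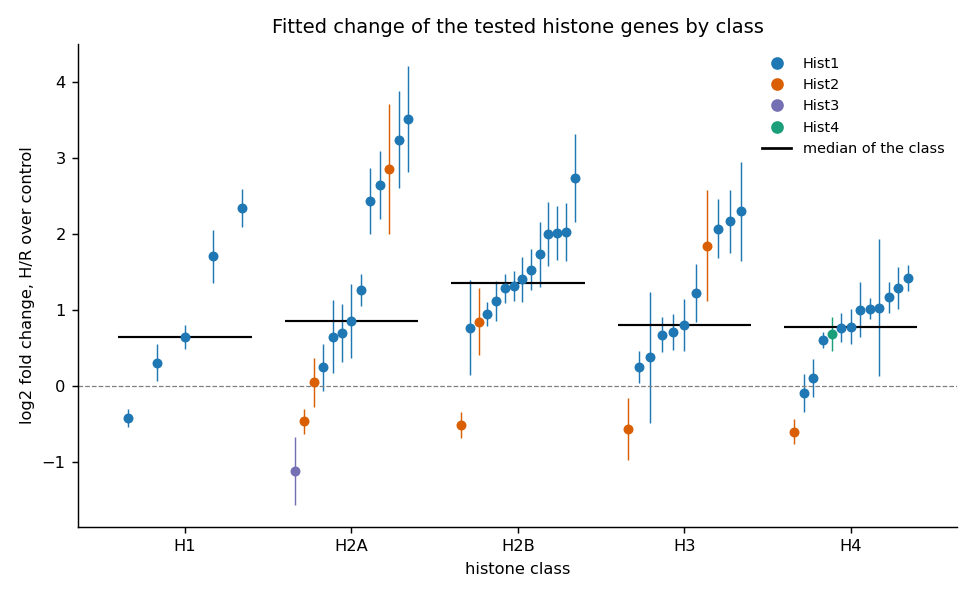
Fitted log2 fold change of the 56 tested histone genes (H/R over control, y axis) by class (x axis), with whiskers for the standard error, colours for the cluster and a bar for the median of the class. The medians run from 0.65 in H1 to 1.36 in H2B, and the genes with the lowest values in the H2B, H3 and H4 classes are Hist2 genes.

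Among H2A genes the changes were the most widely spread. Of 13 tested, 6 were called higher and 1 lower (all genes: 18.8% and 19.0%), with a median of 0.86 and a range of -1.11 to 3.52. Hist1h2ah had 4.56, 3.15 and 1.94 CPM in H/R cells, against 0.13, 0.39 and 0.30 CPM in control cells, and this was the largest log2 fold change of the set (3.52, standard error 0.70). The control values rest on 1, 3 and 2 counts, so the size of this change is poorly fixed. Hist1h2an was next, with 7.59, 5.17 and 5.71 CPM in H/R cells, against 0.64, 0 and 1.35 CPM in control cells (3.24, standard error 0.64; 2.63 to 4.21 when single libraries were left out). Hist1h2ao had 12.4, 18.1 and 10.1 CPM in H/R cells, against 1.29, 4.16 and 0.90 CPM in control cells (2.65, standard error 0.44). Hist1h2ah, Hist1h2an and Hist1h2ao shared 84.8%, 72.5% and 91.5% of their 150-base windows, the length of a read, with other annotated transcripts. Reads of these copies may not be separable. Of the genes with higher counts, Hist1h2ak was even across the H/R replicates but not the controls. It had 19.9, 20.4 and 20.0 CPM in H/R cells, against 10.1, 8.70 and 6.14 CPM in control cells (1.27, standard error 0.21). The other H2A genes of Hist1 that were tested had log2 fold changes of 0.25 to 2.44.

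Hist2h2aa2 showed how 1 library can carry a value. It had 4.78, 3.62 and 49.8 CPM in H/R cells, against 2.84, 2.60 and 2.54 CPM in control cells, with 846 counts in H/R replicate 3 and 87 and 61 in the other H/R libraries. The log2 fold change was 2.86 (standard error 0.85) with all libraries and 0.66 without H/R replicate 3, and the call was lost without that library or control replicate 2. Its ID carries the symbol Hist2h2aa1 in GENCODE M21, and 87.0% of the 150-base windows of that transcript also occur in a copy, so reads of the copies may not be separable. Such a single high library was also seen for Hist1h4m, at 2.47, 27.7 and 6.47 CPM in H/R cells and 1.16, 15.7 and 0.75 CPM in control cells, where replicate 2 was high in both groups. Hist1h2bk had 4.95, 18.4 and 5.18 CPM in H/R cells, against 0.77, 1.69 and 1.80 CPM in control cells, and the groups did not overlap, while those of Hist1h4m did. These 2 genes were singled out after their values were seen.

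H2B was the class with the most regular change, since 11 of 14 tested genes were called higher (all genes: 18.8%) and 12 had all H/R libraries above all controls (all genes: 25.7%). Hist1h2bg had 52.5, 40.3 and 33.2 CPM in H/R cells, against 19.2, 18.4 and 13.8 CPM in control cells (log2 fold change 1.29, standard error 0.19). Hist1h2be had 52.7, 49.0 and 27.4 CPM in H/R cells, against 25.9, 20.0 and 13.2 CPM in control cells (1.12, standard error 0.26), so that its lowest H/R library lay close to its highest control. Hist1h2bf had 28.3, 32.7 and 32.8 CPM in H/R cells, against 15.5, 14.9 and 18.3 CPM in control cells (0.95, standard error 0.16). Within Hist1 all 12 tested H2B genes had positive values, with a median of 1.47. The exception was Hist2h2bb, whose ID belongs in GENCODE M21 to Gm42743, a lincRNA with no stem-loop, so that its counts may not be those of an H2B gene. Its 48.8, 49.2 and 48.7 CPM in H/R cells stood under 93.1, 62.2 and 52.4 CPM in control cells (-0.50, standard error 0.17). Its replicates agreed closely after H/R and spread widely in control, and the change was -0.23 without control replicate 1. Hist2h2be was at 4.34, 2.91 and 3.47 CPM in H/R cells, against 2.58, 1.56 and 1.80 CPM in control cells, and was not called.

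For H3, 6 of 11 tested genes were called higher and none lower (all genes: 18.8% and 19.0%), with a median of 0.80. Hist1h3e had 20.7, 23.2 and 17.3 CPM in H/R cells, against 14.4, 14.8 and 22.3 CPM in control cells, and the groups overlapped (0.25, standard error 0.21). Hist1h3i had 14.6, 13.4 and 13.5 CPM in H/R cells, against 9.80, 9.48 and 5.84 CPM in control cells (0.72, standard error 0.24). Hist1h3f had 11.8, 12.4 and 10.8 CPM in H/R cells, against 7.99, 7.92 and 5.84 CPM in control cells (0.68, standard error 0.24). The calls of both were lost when any H/R library or control replicate 3 was left out, and that of Hist1h3f also without control replicate 2 and with DESeq2. Hist1h3b had 17.2, 14.7 and 12.2 CPM in H/R cells, against 9.92, 11.8 and 3.29 CPM in control cells, and was not called although the groups did not overlap (0.80, standard error 0.34). It was called higher with the exact test, without scaling factors, without the filter, and without control replicate 1 or 2. The larger changes of the class were those of Hist1h3g, Hist1h3a and Hist1h3c, with log2 fold changes of 2.30, 2.17 and 2.07. Of the Hist2 genes of this class, Hist2h3c2 had 2.91, 2.73 and 2.12 CPM in H/R cells, against 0.64, 1.43 and 0 CPM in control cells, and Hist2h3b had 3.52, 4.81 and 1.94 CPM in H/R cells, against 5.93, 5.20 and 4.04 CPM in control cells. Neither was called.

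The H4 genes encode 1 protein sequence from many copies. Hist1h4d (chromosome 13, 23581598 to 23582735, plus strand, mm10) alone held 15.8%, 15.4% and 15.7% of histone counts in the H/R libraries and 15.5%, 15.4% and 17.8% in the control libraries. It had 211, 204 and 178 CPM in H/R cells, against 142, 125 and 121 CPM in control cells, and its log2 fold change of 0.61 (standard error 0.10) was smaller than the class median of 0.79. Hist1h4k had 49.7, 37.6 and 40.1 CPM in H/R cells, against 13.9, 15.1 and 18.4 CPM in control cells, the largest change of the class (1.43, standard error 0.17). Hist1h4a had 61.0, 62.1 and 49.4 CPM in H/R cells, against 27.5, 30.3 and 27.2 CPM in control cells (1.02, standard error 0.13). In both genes every H/R library was well above every control. Hist2h4 was lower, with 36.3, 29.6 and 27.2 CPM in H/R cells, against 56.3, 37.7 and 46.8 CPM in control cells (-0.60, standard error 0.17). Hist1h4i was the only other H4 gene with a negative value (-0.09, standard error 0.25), and its groups overlapped.

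Levels can be set side by side across genes only per length. Of the 56 tested genes, 54 had an annotated exon length under their own symbol. Hist1h4d ranked first in both groups, at 174 ± 15.2 CPM per kilobase after H/R and 114 ± 9.41 in control. After H/R it was followed by Hist1h4k (136 ± 20.5 CPM per kilobase), Hist1h4a (107 ± 13.0) and Hist1h1b (80.9 ± 10.4). In control, Hist2h2ac (79.3 ± 14.3 CPM per kilobase), Hist1h1c (57.9 ± 6.60), Hist1h4a (52.5 ± 3.13) and Hist1h4k (50.6 ± 7.48) came next, and the last 3 did not differ beyond their spread. Hist1h1b had rank 4 after H/R and rank 19 in control, while Hist2h2ac had rank 9 after H/R and rank 2 in control. Several annotated transcripts hold little beyond the coding sequence, which raises their level per kilobase.

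**Figure D3:**
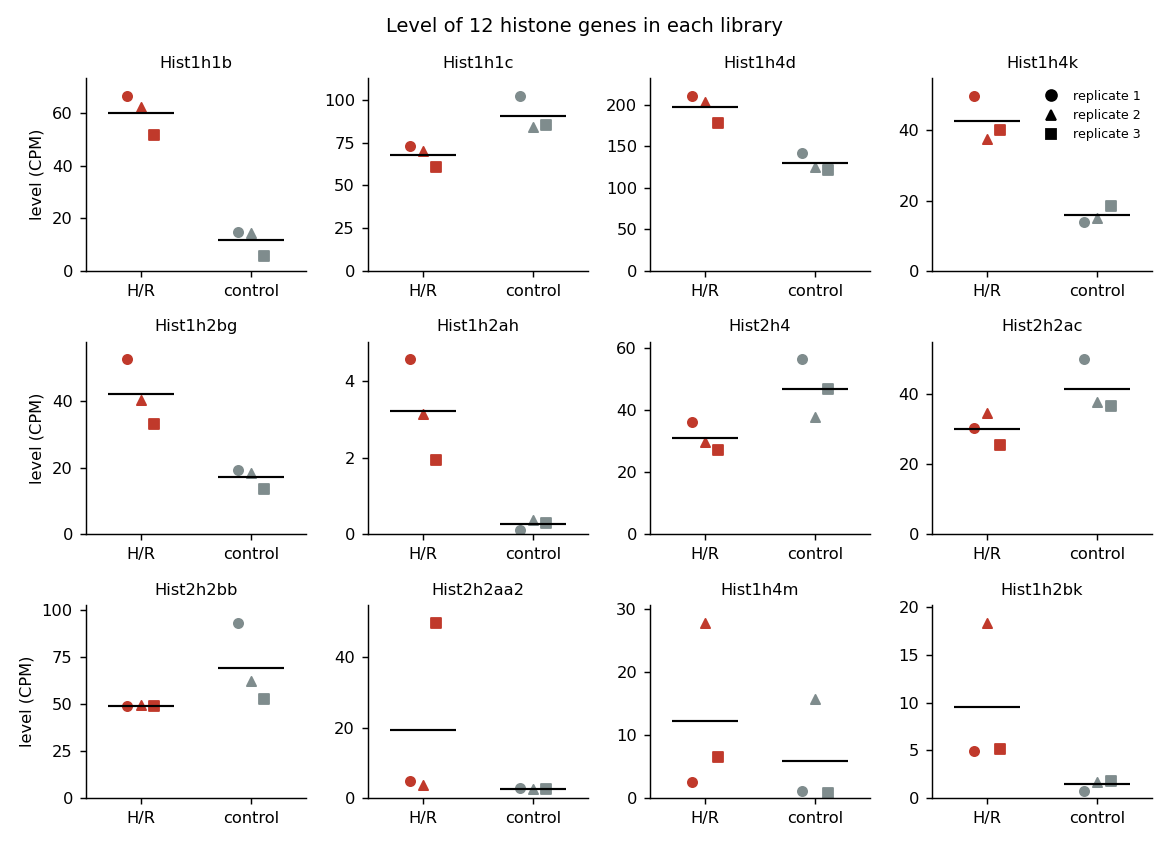
Level in CPM (y axis, from 0) of 12 histone genes in the H/R libraries (left) and control libraries (right), with 1 symbol per replicate number and a bar for the mean. Hist1h1b, Hist1h4d, Hist1h4k, Hist1h2bg and Hist1h2ah lie higher after H/R, Hist1h1c, Hist2h4, Hist2h2ac and Hist2h2bb lower, and Hist2h2aa2, Hist1h4m and Hist1h2bk each have 1 H/R library far above the other H/R libraries.

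Most of the higher genes lay in Hist1, and 3 of the 4 lower genes in Hist2. Of 46 tested Hist1 genes, 33 were called higher and 1 lower, with a median log2 fold change of 1.15. Over all genes 18.8% were called higher and 19.0% lower. Of 8 tested Hist2 genes, 1 was called higher, Hist2h2aa2, and 3 lower, with a median of -0.20, which was -0.05 without control replicate 1, -0.12 without H/R replicate 3, -0.35 without control replicate 3, -0.31 with thinned H/R libraries, -0.47 with DESeq2 and 0.010 without scaling factors. The summed level of Hist1 was 1175, 1169 and 954 CPM in H/R cells, against 679, 646 and 520 CPM in control cells, and that of Hist2 was 136, 133 and 164 CPM in H/R cells, against 217, 155 and 148 CPM in control cells. For Hist1 every H/R library lay above every control, and for Hist2 the groups overlapped through the H/R replicate with the high Hist2h2aa2. Hist2 genes took 10.2%, 10.1% and 14.5% of histone counts in the H/R libraries and 23.7%, 19.1% and 21.6% in the control libraries. This share rests on the counts of each library alone and so does not depend on the scaling between libraries. It falls where Hist1 rises, even with Hist2 unchanged, and the summed level of Hist1 was 1.79-fold higher after H/R. The sums and shares of Hist2 also include Hist2h2bb, whose ID is that of a lincRNA in GENCODE M21. That gene had a mean of 48.9 CPM after H/R and 69.2 CPM in control.

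In Hist2, 3 genes were lower, of the H4, H2A and, by its name in the table, H2B class. Beside Hist2h4 and Hist2h2bb, whose ID is that of a lincRNA in GENCODE M21, the H2A gene Hist2h2ac had 30.4, 34.5 and 25.3 CPM in H/R cells, against 49.7, 37.5 and 36.4 CPM in control cells (log2 fold change -0.46, standard error 0.16; -0.30 without control replicate 1). Hist2h2ab, its neighbour, was at 5.28, 6.0 and 5.83 CPM in H/R cells, against 6.06, 6.62 and 3.74 CPM in control cells (0.05, standard error 0.32), and this sign turned to -0.16 without control replicate 3. The 4 lower calls of the set, Hist1h1c included, are less firm than the higher ones. None passed without scaling factors, a setting that moved the median of all genes to 0.22, and none passed without H/R replicate 3; without H/R replicate 1 or control replicate 1, 2 passed. Of the 35 higher calls, all passed without scaling factors and 28 to 34 when a single library was left out.

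The clusters of 1 gene pointed in different directions. Hist4h4 on chromosome 6 had 18.4, 19.8 and 15.9 CPM in H/R cells, against 14.8, 8.44 and 10.3 CPM in control cells (log2 fold change 0.69, standard error 0.23; 0.51 without control replicate 2, where the call was lost, as it was without H/R replicate 1, H/R replicate 2 or control replicate 3). Hist3h2a on chromosome 11 had 1.81, 2.55 and 1.77 CPM in H/R cells, against 4.90, 2.73 and 5.69 CPM in control cells. Its log2 fold change of -1.11 (standard error 0.45) was the smallest of the set, and it was not called.

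**Figure D4:**
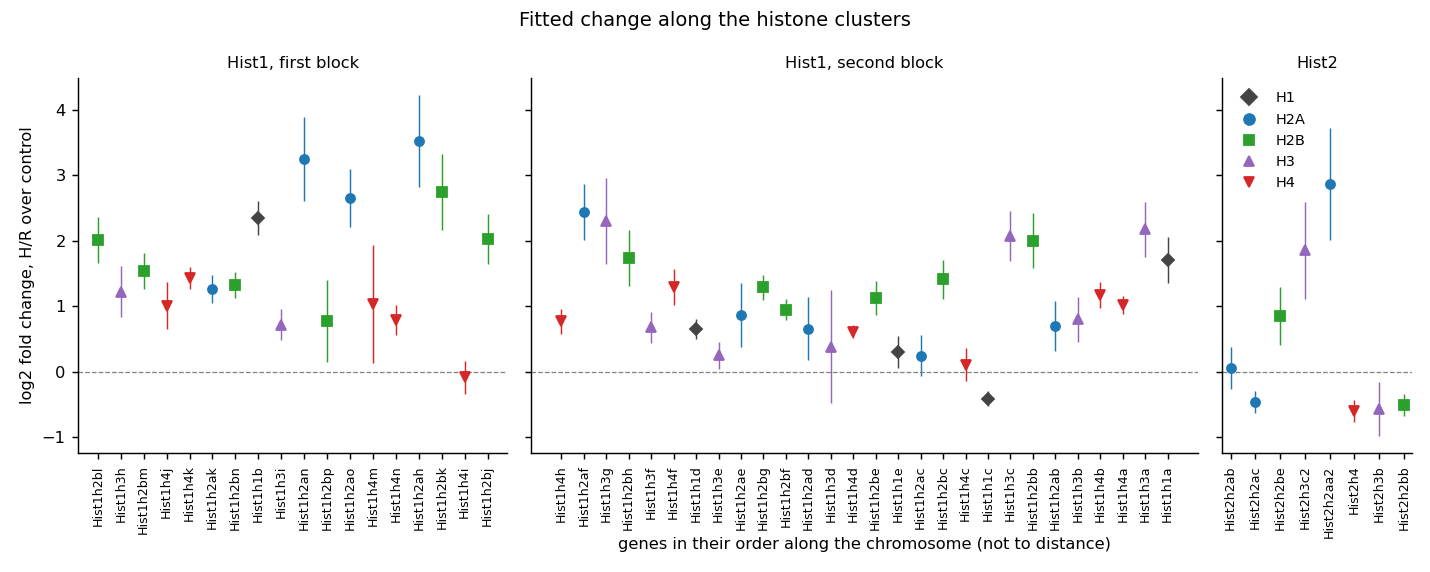
Fitted log2 fold change (H/R over control, y axis, whiskers for the standard error) of the tested genes in their order along Hist1 and Hist2, with symbols for the class. In the first block of Hist1 all values but that of Hist1h4i (-0.09) are positive, values near 0 and the negative value of Hist1h1c stand in the second, and 4 of the 8 Hist2 genes have negative values.

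Hist1 lies on chromosome 13 in 2 blocks more than 1 Mb apart (mm10, positions from GENCODE M21). The first runs from 21715763 to 22043676 and the second from 23531050 to 23934851. In the first block 15 of 18 tested genes were called higher and none lower (median 1.37), and in the second 18 of 28 were called higher and 1 lower (median 0.91; all genes: 18.8% and 19.0%). Class by class, the H2A genes of the first block had a median of 2.95 (4 genes), those of the second 0.70 (5 genes), and the H2B genes 1.78 and 1.35 (6 genes each). In the first block, Hist1h2ah, Hist1h2an and Hist1h2ao shared 84.8%, 72.5% and 91.5% of their 150-base windows with other transcripts. Hist1h2ak, which shared none, had 1.27. Hist1h2ah and Hist1h2an had control counts of only 1, 3 and 2 and of 5, 0 and 9. They passed the filter on low counts through the H/R libraries, where they were high. Hist1h2ag, Hist1h2ai and Hist1h2ap of this block were not tested. The H2A median of the first block thus rests partly on genes kept because they were high after H/R. The tested H2A genes of the second block shared 5.62% to 59.3%. H4 genes had medians of 1.01 in the first block (5 genes) and 0.90 in the second (6 genes). Some of the second block's smallest values belonged to neighbours, Hist1h1e, Hist1h2ac, Hist1h4c and Hist1h1c, with log2 fold changes of 0.31, 0.25, 0.11 and -0.41, although Hist1h2bc, between them, had 1.41.

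Of 11 pairs of histone genes that start back to back less than 1 kb apart, 10 join an H2A with an H2B gene. Where both partners were tested they could differ. Hist1h2ak and Hist1h2bn, 295 bases apart, had log2 fold changes of 1.27 and 1.32, and Hist1h2ah and Hist1h2bk, 301 bases apart, had 3.52 and 2.74. In contrast, Hist1h2ac and Hist1h2bc, 250 bases apart, had 0.25 and 1.41. Hist2h2ac and Hist2h2be, 238 bases apart, had -0.46 and 0.85, of which only the first was called.

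Transcript ends were compared next, because a histone mRNA that runs past the stem-loop can also be polyadenylated. Of the tested genes, 20 had an annotated transcript that ended within 100 bases after the stem-loop, with a median log2 fold change of 1.23, and 20 had one that ran further, with a median of 0.63. Of the transcripts that ended early 14 were called higher and 1 lower, and of those that ran further 9 higher and 2 lower (all genes: 18.8% and 19.0%). The remaining 16 transcripts held no stem-loop, often because the annotation ends at the coding sequence, and had a median of 1.36. Among the 12 genes with a poly(A) signal in the last 40 bases the median was 0.77 (5 higher, 2 lower), and among the 44 without it 1.28 (30 higher, 2 lower). Hist1h1c, Hist2h4 and Hist4h4 run 840, 1257 and 2445 bases past the stem-loop, and each has such a signal. The difference was not tested, and the classes and levels of these groups are not alike, since the median control level was 4.61 CPM for the transcripts that end early and 14.2 CPM for those that run on.

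Grouped by the loop of the stem-loop, 30 tested genes with the loop TTTC had a median log2 fold change of 0.83 (17 called higher, 1 lower; all genes: 18.8% and 19.0%). The 5 tested with TTTA had a median of 2.0 (4 higher), and the 3 with TTTT, Hist1h4i, Hist2h4 and Hist2h2ac, had -0.09, -0.60 and -0.46. The single genes with TCTC, Hist1h4a, and TCTT, Hist1h3g, had 1.02 and 2.30. This grouping was made after the values were seen.

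Promoter sequence was taken from RefSeq (GRCm38.p6), which matched 57 of the 62 genes with 58 promoters. Searched on both strands in the 250 bases before the start, CCAAT was present in 82.8% of histone promoters and 33.8% of all 32851 promoters, TATAAA in 48.3% and 12.4%, and the octamer ATTTGCAT in 24.1% and 1.60%. The octamer stood in 7 of 17 H2A and 7 of 14 H2B promoters and in no other class. Partners of the back-to-back H2A and H2B pairs lie 175 to 305 bases apart, so their searched stretches overlap. A motif between such partners can be counted for both, and which of them it belongs to cannot be told from this search. This also holds for Hist2h2ac, 238 bases from Hist2h2be. CCAAT stood in every H1, H2A and H2B promoter and in 3 of 12 H4 promoters. The 120 bases before the start are printed for 5 genes that changed in different ways, with these motifs, on either strand, in capitals: Hist1h1b (chr13:21780626-21780745, minus strand), Hist1h1c (chr13:23738687-23738806, plus), Hist1h2bk (chr13:22035701-22035820, plus), Hist1h4k (chr13:21750554-21750673, minus) and Hist2h2ac (chr3:96220881-96221000, minus).
Hist1h1b: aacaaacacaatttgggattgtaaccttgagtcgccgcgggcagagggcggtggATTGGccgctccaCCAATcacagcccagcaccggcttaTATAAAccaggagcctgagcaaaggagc
Hist1h1c: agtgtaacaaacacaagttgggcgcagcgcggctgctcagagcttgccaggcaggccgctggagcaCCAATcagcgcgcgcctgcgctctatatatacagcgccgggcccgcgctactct
Hist1h2bk: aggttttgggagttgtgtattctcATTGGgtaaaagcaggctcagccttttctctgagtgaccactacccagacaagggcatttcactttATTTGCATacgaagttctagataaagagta
Hist1h4k: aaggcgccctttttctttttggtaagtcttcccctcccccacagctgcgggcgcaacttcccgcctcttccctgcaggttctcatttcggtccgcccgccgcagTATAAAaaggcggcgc
Hist2h2ac: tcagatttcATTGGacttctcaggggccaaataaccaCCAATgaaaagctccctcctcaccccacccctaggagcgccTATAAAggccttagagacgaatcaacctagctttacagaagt
CCAAT stood in 78.8% of 33 promoters of higher genes and in all 3 of lower genes, TATAAA in 45.5% and 1 of 3, and the octamer in 18.2% and 2 of 3. A match describes the letters only and is no evidence of binding.

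Near-identical copies limit what a single gene's count means. Of the 62 genes, 49 shared at least 1 window of 150 bases, the length of a read, with another annotated transcript, and 17 shared at least 50% of their windows. The 11 tested genes that shared none had a median log2 fold change of 0.65, with 6 called higher and 3 lower, and these hold the 3 lower genes Hist1h1c, Hist2h2ac and Hist2h4 together with Hist1h1b, Hist1h1a, Hist1h2ak and Hist1h4d, all higher. The 14 tested genes that shared at least 50% had a median of 1.64, with 10 higher and none lower (all genes: 18.8% and 19.0%). Their control level was lower too, a median of 3.38 CPM beside 11.7 CPM for the genes that shared none. How the authors treated reads with several matches is not given in the sources used here.

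The 6 genes that were not tested had few counts. Hist1h2ai had 66, 71 and 11 counts in H/R cells, against 6, 2 and 0 in control cells, Hist1h2ap 17, 9 and 29 in H/R cells, against 0, 2 and 0 in control cells, and Hist1h2ag 25, 21 and 8 in H/R cells, against 5, 6 and 0 in control cells. Hist1h2ba, which encodes a testis form of H2B, had 4, 4 and 3 counts in H/R cells and 0 in all control cells, at least 1.56-fold higher when set against a floor of 3 counts over the control group. Hist1h2aa, its H2A neighbour, had 0 counts in H/R cells and 1 in control cells. The testis genes were therefore at or near 0 in both groups.

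The genes that make histone mRNA did not move together. Of 28 genes for transcription, 3′ processing and decay of histone mRNA, which are not histone genes themselves, 27 were tested, 8 were called higher and 3 lower (all genes 18.8% and 19.0%), with a median of 0.18. Slbp, the gene of the stem-loop binding protein, had 69.1, 73.2 and 74.1 CPM in H/R cells, against 41.6, 31.8 and 32.0 CPM in control cells (log2 fold change 1.03, standard error 0.13, edgeR adjusted p = 4.30e-05). Cyclin E and its kinase, which drive entry into S phase, were higher as well. Ccne2 had 53.1, 42.1 and 51.8 CPM in H/R cells, against 21.8, 16.4 and 7.48 CPM in control cells (1.68, standard error 0.26, edgeR adjusted p = 2.82e-04). Cdk2 was at 76.2, 78.8 and 72.0 CPM in H/R cells, against 41.9, 42.3 and 38.9 CPM in control cells (0.88, edgeR adjusted p = 3.87e-05), and Ccne1 had a change of 0.70 (edgeR adjusted p = 0.0159), a call lost without H/R replicate 1 or 2. None of these 4 genes had overlapping groups, and all H/R libraries lay above all controls for 25.7% of all genes. Ccne1, Ccne2 and Cdk2 were named for their small adjusted p, which favours groups that do not overlap.

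Npat, the cyclin E-Cdk2 substrate that activates histone transcription, had 110, 104 and 113 CPM in H/R cells, against 87.0, 82.5 and 95.2 CPM in control cells (log2 fold change 0.31, edgeR adjusted p = 0.0254), and lost its call when any H/R library or control replicate 2 was left out. Casp8ap2, also called FLASH, which works in 3′ processing, had 101, 90.4 and 129 CPM in H/R cells, against 95.9, 109 and 77.4 CPM in control cells, and was not called. Lsm10, of the U7 particle that cuts histone pre-mRNA, had a change of 0.80 (edgeR adjusted p = 0.0184), a call lost without H/R replicate 1 or 3, and Upf1, which acts in histone mRNA decay, 0.68 (edgeR adjusted p = 1.20e-04). The 3 lower genes, Fip1l1 (-0.46, edgeR adjusted p = 0.00223), Ncbp1 (-0.34, edgeR adjusted p = 0.0221) and Cstf2t (-0.30, edgeR adjusted p = 0.0493), serve polyadenylation and the mRNA cap in general, and none of them passed without scaling factors. Ncbp1 also lost its call without H/R replicate 1, H/R replicate 2 or control replicate 3, and Cstf2t without any library but control replicate 2.

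Several chaperones that load new histones onto DNA were higher after H/R. Of 26 chaperone and nucleosome assembly genes, all tested, 11 were called higher and 3 lower (all genes 18.8% and 19.0%), with a median of 0.13. Chaf1a, the large subunit of CAF-1, had 75.2, 81.1 and 77 CPM in H/R cells, against 30.3, 28.7 and 27.4 CPM in control cells (log2 fold change 1.43, standard error 0.11, edgeR adjusted p = 1.16e-06). Asf1b, which hands H3 and H4 to CAF-1, had 29.5, 33.8 and 33.4 CPM in H/R cells, against 10.8, 11.9 and 4.49 CPM in control cells (1.81, edgeR adjusted p = 1.42e-04), while its paralog Asf1a had a change of 0.12 (edgeR adjusted p = 0.506). Dnajc9, Hat1, Nasp and Chaf1b had changes of 1.49, 0.79, 0.77 and 1.09. The genes of the FACT complex, Ssrp1 and Supt16, were not called (0.09 and 0.14). Ipo4, an importin for H3 and H4, was lower, with 29.5, 28.3 and 25.0 CPM in H/R cells, against 48.5, 47.3 and 58.1 CPM in control cells (-0.89, edgeR adjusted p = 2.16e-04). Atrx (-0.32) and Rbbp4 (-0.28) were lower by less and did not pass without scaling factors or without H/R replicate 1, nor did Atrx without H/R replicate 2 or Rbbp4 without H/R replicate 3.

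**Figure D5:**
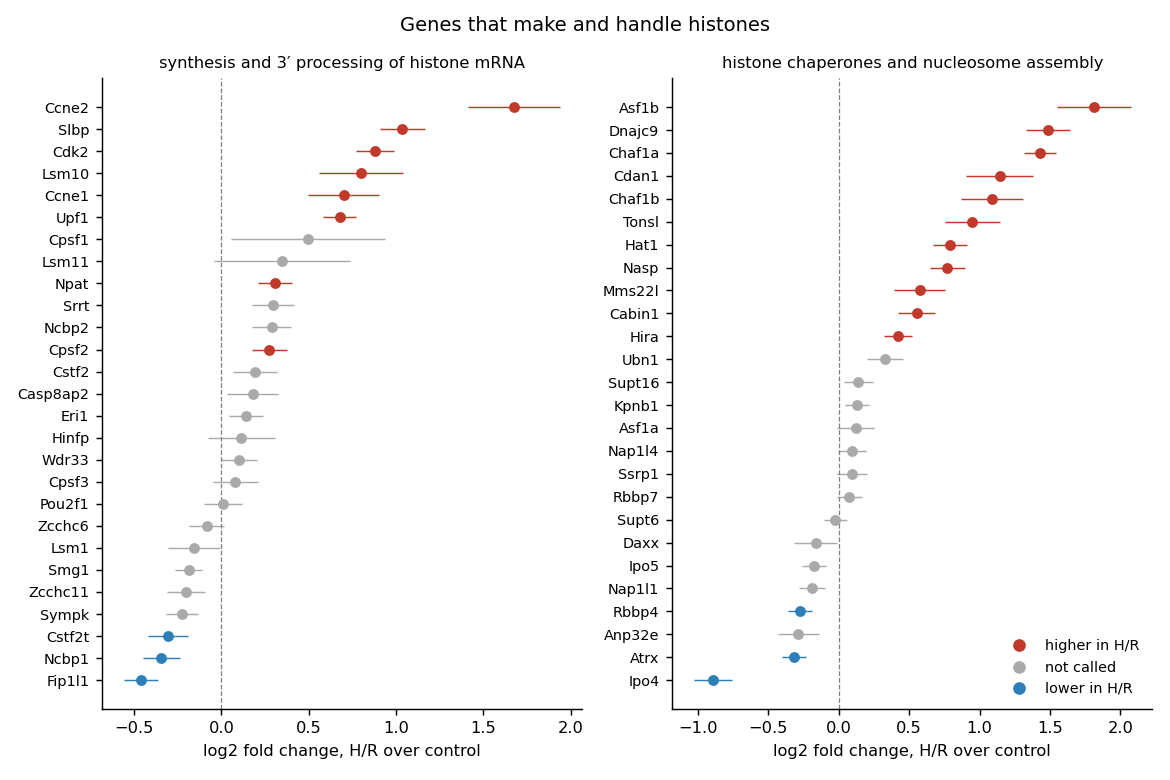
Fitted log2 fold change (H/R over control, x axis, whiskers for the standard error) of 27 tested genes of histone mRNA synthesis and processing (left) and 26 chaperone and assembly genes (right), with colours for the call at an adjusted p under 0.05. Ccne2 and Slbp lead the left panel at 1.68 and 1.03, and Asf1b, Dnajc9 and Chaf1a the right at 1.81, 1.49 and 1.43.

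The lncRNA table, which counts transcripts of the same libraries, held 16 transcripts beside histone genes, of which 6 were tested and 3 called higher, while 2.67% of all 6779 tested lncRNA transcripts were called higher. All 3 are annotated as antisense to Hist2 genes. Gm20628, antisense to Hist2h2bb and Hist2h3b, had 175, 129 and 139 counts in H/R cells, against 17, 15 and 36 in control cells (log2 fold change 1.66, standard error 0.37, edgeR adjusted p = 0.0124). Gm20633 and Gm20632, antisense to the Hist2h2aa genes, had changes of 1.64 and 1.33, scaled within the lncRNA table (edgeR adjusted p = 0.00482 and 0.0187). Hist2h3b was not called, and the counts under the name Hist2h2bb, whose ID GENCODE M21 gives to a lincRNA, were lower. Since no source used here states whether counting used the strand, reads of an antisense transcript and of the histone gene opposite it cannot be told apart.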

How the data were processed

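RNA-seq of total RNA after ribosomal depletion, read as 150-base pairs, was used from 3 H/R and 3 control libraries. The deposited values are raw counts per gene and per lncRNA transcript: the authors trimmed with cutadapt 1.9.3, aligned to mm10 with HISAT2 2.0.4 and counted with HTSeq 0.9.1, per the labels and methods, and ran edgeR 3.16.5 for their own fold changes and p-values, which were not used. The strand setting, the annotation release and the treatment of reads with several matches are not given in the sources used here. Beside the counts, 12 columns of normalized values were not used, nor was the circRNA table.

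Genes were tested with edgeR 4.0.16 in R 4.3.3 (filterByExpr, TMM factors, glmQLFit and glmQLFTest, two-sided). The Benjamini-Hochberg adjustment ran over all 11104 genes, with a threshold of 0.05. The test was checked on simulated counts with the same dispersion for every gene and changes planted only in genes with higher counts. That check does not cover histone genes with few counts or uneven replicates. CPM use TMM-scaled totals. Standard errors are the fold change divided by the root of F. Total counts per library (7267809 to 16830389) set the counting precision, and totals differed 2.03-fold between groups. Of 62 histone IDs, 55 were matched to GENCODE M21 by ID (53 under the same symbol) and 7 by symbol. Histone genes named with values were all tested H1 genes, the 4 with the highest mean CPM in each other class, all tested Hist2, Hist3 and Hist4 genes, every gene called lower, and the 2 largest and 2 smallest changes; from the other lists, Slbp, Npat and Casp8ap2 and up to 6 called genes per direction. Others were named after their values were seen. The histone genes and all lists were chosen with earlier results of these data known. The alternatives tried were another tool (DESeq2 1.42.0), the exact test of edgeR, RLE or no scaling factors, other filters, a replicate block, each library left out, the study's thresholds (p under 0.05 and a fold of 2) and, chosen after seeing the data, thinned H/R libraries.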

Additional observations from a re-analysis of the deposited data

How the results depend on the processing

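The median log2 fold change of the histone genes (1.02) stayed at 0.96 to 1.23 under every alternative run. With single libraries left out, 28 to 39 histone genes were called higher (28 without H/R replicate 1) and 0 to 4 lower. Without scaling factors 0 histone genes were lower, the medians of H1 and H2A were 0.87 and 1.07, and that of Hist2 turned to 0.010. At the study's thresholds 1 histone gene was lower. With single libraries left out the class medians ran from 0.72 to 1.29 (H2A), 0.72 to 1.19 (H3) and 0.67 to 1.03 (H4). For histone mRNA synthesis and processing, 14 genes were higher and 0 lower without scaling factors, 2 and 0 at the study's thresholds, and 4 to 8 and 1 to 3 with single libraries left out. For chaperones these counts were 17 and 1, 5 and 0, and 10 to 11 and 1 to 5. Without Hist1h4d the histone share was 0.115% after H/R and 0.0626% in control. Hist2h2ab ran from -0.16 to 0.20 with single libraries left out and turned to -0.17 with thinned H/R libraries. The cause of these shifts was not tested. Over all tested genes, same-numbered replicates did not deviate together (correlations 0.039, 0.004 and 0.022). For the histone genes alone this was not computed, and replicate 3 was lowest for 37 of 56 after H/R and for 35 in control. With the replicate block, 34 of 35 higher and 4 of 4 lower calls were kept, Hist1h3b was called higher (0.92) and the median was 1.07. Genes under about 10 counts per control library limit the precision of the largest changes.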

Other observations

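The replacement histone variants, which are also made outside S phase, from single genes and mostly carry a poly(A) tail, were listed after the counts had been read and are described with no test. Of 12 genes, 11 were measured, with a median log2 fold change of 0.22 where the clustered histone genes had 1.02. All H/R libraries lay above all controls for 5 of them and under all controls for 1 (all genes: 25.7% and 24.0%). H2afz was at 174 ± 33.5 CPM after H/R and 173 ± 7.33 CPM in control, and H3f3b at 253 ± 5.99 CPM after H/R and 276 ± 34.1 CPM in control (SD, n = 3 each), and the groups of both overlapped. H3f3a, which encodes the same H3.3 protein as H3f3b, was at 239 ± 12.6 CPM after H/R and 201 ± 18.3 CPM in control (log2 fold change 0.25, standard error 0.09), with every H/R library above every control.

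The other variants varied, with log2 fold changes from -1.40 (H1f0) to 1.77 (Cenpa). The groups of H2afy, H2afy2 and H2afv overlapped (-0.11, 0.02 and 0.22). For H2afj and H1fx every H/R library lay above every control (1.05 and 1.11, standard errors 0.22 and 0.68), H1fx at means of 1.97 CPM after H/R and 0.92 CPM in control. Cenpa, the H3 variant of centromeres, was at 18.2 ± 1.29 CPM after H/R and 5.26 ± 2.95 CPM in control (log2 fold change 1.77, standard error 0.33), and H2afx, which is phosphorylated beside DNA breaks, at 39.9 ± 4.92 CPM after H/R and 13.7 ± 3.13 CPM in control (1.54, standard error 0.18). H1f0, a linker histone known from cells that have stopped dividing, was at 47.0 ± 2.97 CPM after H/R and 124 ± 33.7 CPM in control (-1.40, standard error 0.16). With Hist1h1c it was the second linker histone gene for which every H/R library lay under every control.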
